A study of Rattus norvegicus with 54 samples.

Results

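Transcripts of 9 core and output genes of the circadian clock were followed in cultured rat cortical neurons: Arntl (also called Bmal1), Clock, Per1, Per2, Per3, Bhlhe40, Nr1d1, Nr1d2 and Dbp. Each was chosen by its Ensembl identifier and kept only if the count table lists that identifier on the chromosome named for it. That rule uses no measured values, but the genes were chosen with earlier results of these data known. All 9 were present among 30560 genes, and all 9 passed the low-count filter that left 17172 genes for testing. Neurons came from the cortex of rat embryos at day 18 of gestation and were grown in culture; the labels give neither a synchronising treatment nor the hour of the day at harvest, and no period or phase was fitted. The study asked what extra Mbd3, a methyl-CpG-binding-domain protein, does in a culture model of epileptiform activity. Cultures were untransfected, or received an adeno-associated virus (AAV) carrying GFP under the SYN promoter (AAV_SYN_GFP, called GFP here), or the same kind of virus carrying rMBD3 with GFP (AAV_SYN_rMBD3_GFP, called rMBD3 here). SYN stands for synapsin, whose promoter is used to drive a transgene in neurons, so other cells of a culture need not carry it. Each construct was kept in standard medium with magnesium or in magnesium-free medium, the epileptiform condition, and harvested at 2, 6 or 24 h after the epileptiform state was induced. These 18 groups had 3 libraries each, 54 in all, and the labels number the cultures 1 to 3 within every group.

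The clock is a delayed feedback loop in transcription. The BMAL1 and CLOCK proteins pair and bind E-box sequences, from which they switch on the period genes (Per1, Per2, Per3), the genes for the nuclear receptors REV-ERB alpha and beta (Nr1d1, Nr1d2), the repressor gene Bhlhe40 (DEC1) and the output gene Dbp. The period proteins then return to block BMAL1 and CLOCK, the REV-ERB receptors repress Arntl, BHLHE40 competes for E-boxes, and DBP carries the rhythm onward through D-box sequences; Per1 and Bhlhe40 are also known for fast induction by neuronal activity and cyclic AMP signalling.

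Promoter sequences are shown because the loop runs through a few short motifs. Whether these motifs relate to the changes described below was not tested. RefSeq promoter windows (build GRCr8, 250 bases before to 50 after each start site) were found for all 9 genes and searched on both strands for the E-box CACGTG, the E'-box CACGTT, the D-boxes TTATGTAA and TTACGTAA, the REV-ERB and ROR element TAGGTCA and the cyclic AMP element TGACGTCA. Clock and Nr1d1 had 2 windows each. Matches lay in 4 genes, no match shared bases with another, and the other 5 genes had none of these exact letters in their windows. For Per1 and Per3 the only window lay mostly inside the gene's annotated span. Sequence upstream of these genes was therefore largely not searched, and the lack of a match does not describe it. The E-box occurred in 6.42% of 33469 promoter windows, the E'-box in 4.83%, the D-boxes in 0.893% and 0.12%, the REV-ERB and ROR element in 2.63% and the cyclic AMP element in 1.83%. The share of windows with any of these motifs was not computed, so the count of 4 genes has no matching background. The stretches with a match follow, 5′ to 3′ on the gene's strand, with the motif in capitals.
Bhlhe40, E-box, chr4:143174200-143174449, plus strand: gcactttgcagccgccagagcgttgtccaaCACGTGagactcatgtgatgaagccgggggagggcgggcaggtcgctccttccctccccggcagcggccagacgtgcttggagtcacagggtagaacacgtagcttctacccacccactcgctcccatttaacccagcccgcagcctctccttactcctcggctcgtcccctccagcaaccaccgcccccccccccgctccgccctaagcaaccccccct
Nr1d1, upstream start site, E'-box read on the minus strand of the window, chr10:84231813-84232062, minus strand: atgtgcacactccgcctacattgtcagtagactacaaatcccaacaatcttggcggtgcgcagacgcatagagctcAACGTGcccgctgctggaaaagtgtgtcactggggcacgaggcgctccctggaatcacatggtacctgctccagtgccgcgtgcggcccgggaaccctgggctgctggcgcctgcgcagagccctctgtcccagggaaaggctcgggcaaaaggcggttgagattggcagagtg
Nr1d1, downstream start site, E-box, chr10:84229628-84229657, minus strand: tgtcagctcccaCACGTGtctggggatcct
Per2, D-box, chr9:99497070-99497243, minus strand: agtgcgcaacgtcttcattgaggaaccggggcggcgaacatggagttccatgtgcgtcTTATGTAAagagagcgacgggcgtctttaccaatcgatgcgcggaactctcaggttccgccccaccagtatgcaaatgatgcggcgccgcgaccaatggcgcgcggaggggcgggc
Per2, E'-box, chr9:99497038-99497067, minus strand: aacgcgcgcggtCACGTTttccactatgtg
Arntl, REV-ERB and ROR element, chr1:176766298-176766327, plus strand: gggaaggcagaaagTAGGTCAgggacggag
These matches describe the letters of the windows only; no binding was measured, and distal elements were not searched.

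Total counts per library ran from 14448927 to 39691105, and 3 counts, the floor used here, correspond to 0.076 to 0.206 CPM (counts scaled to library size with TMM factors, the trimmed mean of M values). The lowest count of any of the 9 genes in any library was 226, for Per3, so no value was near that floor, which covers counting error only. Libraries of culture 1 stood further from the other 2 libraries of their group than did the rest: the median absolute log2 distance over genes was 0.368 for culture 1 (median of 18 libraries), 0.255 for culture 2 and 0.214 for culture 3. Mitochondrial genes took 1.41% to 4.9% of counts in culture 1, 1.62% to 2.59% in culture 2 and 1.38% to 4.9% in culture 3. Results are therefore also given by culture or without culture 1. The labels call the numbered cultures biological replicates and do not say whether they came from separate litters, so p-values measure the spread among these libraries. In these bulk samples fewer cells of a type and less RNA per cell cannot be told apart. Marker genes of neurons, glia and other cells (22 symbols) and 20 further clock genes were not analysed here, and nor was Mbd3 itself, because no table at hand pairs their symbols with the identifiers of the counts.

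In the mRatBN7.2 annotation of the count table the activator genes were Arntl (ENSRNOG00000014448) at chr1:167331633-167430231 on the plus strand and Clock (ENSRNOG00000002175) at chr14:31908566-31990400 on the plus strand. The period genes were Per1 (ENSRNOG00000007387) at chr10:53805535-53814431 on the plus strand, Per2 (ENSRNOG00000020254) at chr9:92007296-92049459 on the minus strand and Per3 (ENSRNOG00000018413) at chr5:161459533-161495607 on the minus strand, and the fourth repressor gene was Bhlhe40 (ENSRNOG00000007152) at chr4:141618476-141624774 on the plus strand. The nuclear receptor genes were Nr1d1 (ENSRNOG00000009329) at chr10:83728318-83735705 on the minus strand and Nr1d2 (ENSRNOG00000046912) at chr15:7524257-7550553 on the plus strand, and the output gene was Dbp (ENSRNOG00000021027) at chr1:96175440-96180745 on the plus strand. Counts were of read pairs over the exons of each gene.

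Per1 was the most abundant of the 9 transcripts per exonic length, and Per3 the least. Mean levels were 48.7 ± 17.1 RPKM (CPM divided by exonic length in kilobases, SD over 54 libraries) for Per1, 28.4 ± 14.6 for Bhlhe40, 20.8 ± 12.3 for Nr1d1 and 18.8 ± 8.03 for Dbp. They were 10.5 ± 2.46 RPKM for Arntl, 10.3 ± 3.84 for Clock, 8.49 ± 2.38 for Nr1d2, 6.68 ± 1.75 for Per2 and 3.96 ± 1.91 for Per3. Compared within each library, Nr1d1 exceeded Dbp in 25 of 54, Arntl exceeded Clock in 30 and Clock exceeded Nr1d2 in 32, so these neighbours in the order did not differ beyond their spread. The other neighbours kept their order in 43 to 49 of 54 libraries. Per1 lay above 91.3% of tested genes on this scale and Per3 above 44%.

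**Figure D1:**
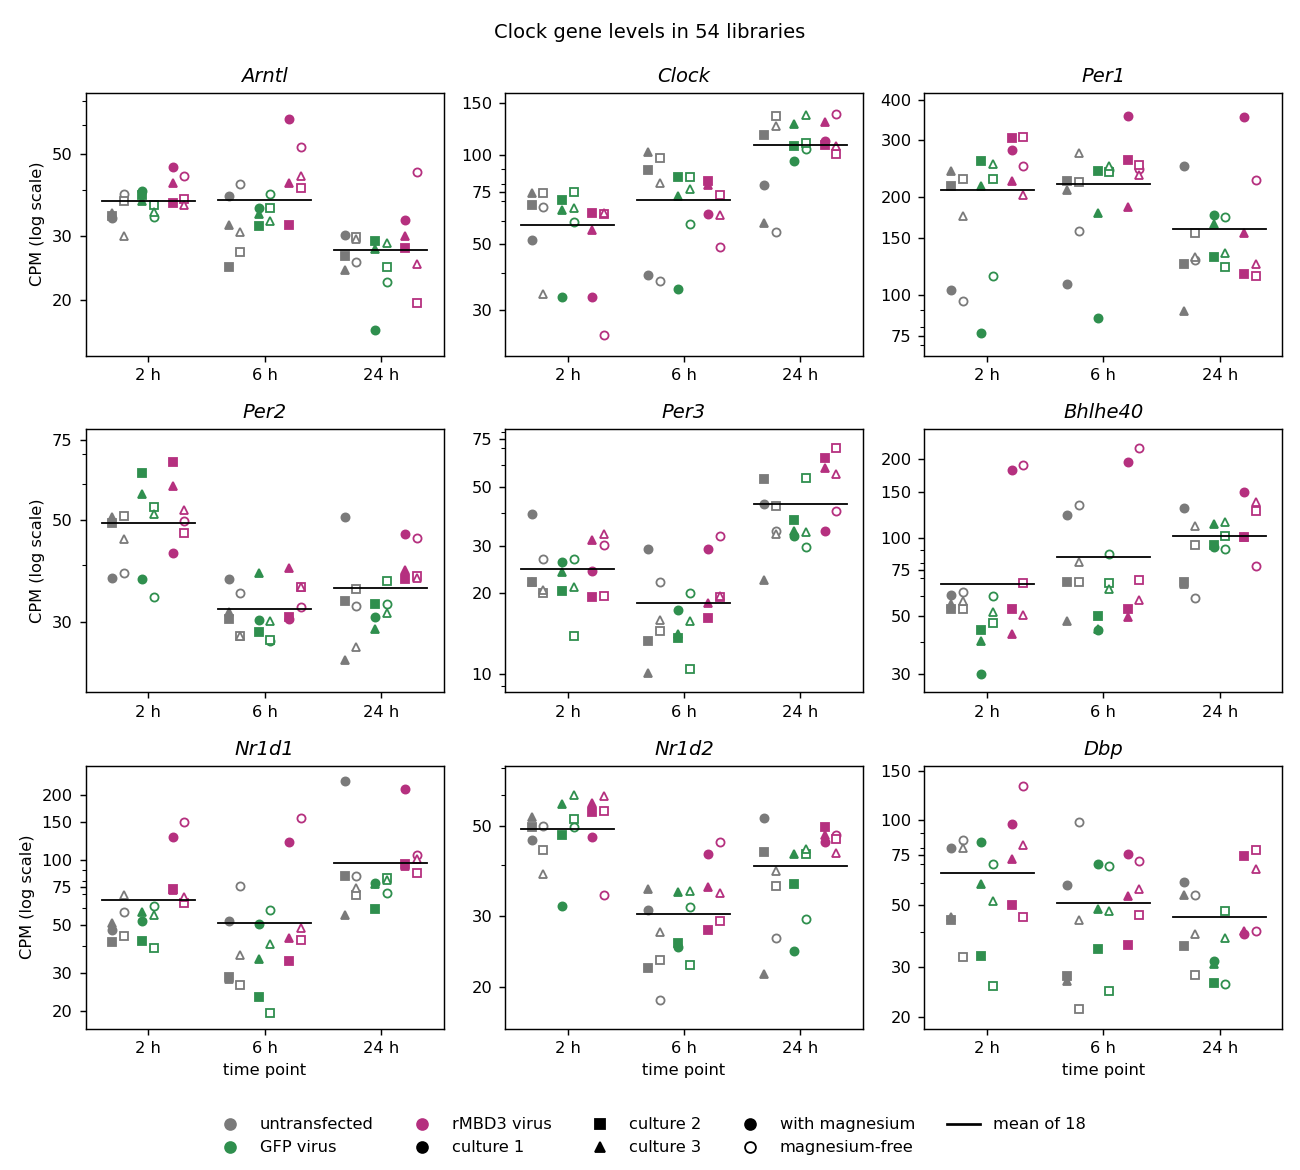
Level of each clock gene in CPM on a log axis (symbols, 1 per library) at 2, 6 and 24 h, with colour for the construct, shape for the culture number and open symbols for magnesium-free medium; black lines are means of 18 libraries. Per2 and Nr1d2 dip at 6 h, Per3 is lowest at 6 h and highest at 24 h, and the circles of rMBD3 culture 1 (magenta) lie far above the rest for Bhlhe40 and Nr1d1 at 2 and 6 h.

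How the clock genes moved between the 2, 6 and 24 h time points was examined first, with both media together. The libraries in magnesium medium, which were not in the epileptiform condition, had the same weight as the others. These comparisons do not separate a response to induction from other changes with time. Levels of the 9 genes went different ways. At 24 h Clock, Per3, Bhlhe40 and Nr1d1 were higher than at 2 h, and Arntl, Per1, Per2, Nr1d2 and Dbp were lower. The cultures were not uniform in this. On the log2 scale Per1 was higher in culture 1 (0.56 ± 0.22) and Dbp in culture 2 (0.29 ± 0.19, not called). Between 2 and 6 h, Per2, Per3 and Nr1d2 fell. Between 6 and 24 h, Per3, Nr1d1, Nr1d2 and Clock rose while Arntl and Per1 fell. The 3 time comparisons share libraries and give equal weight to the 6 combinations of construct and medium. Most of the transcriptome moved with time as well, so the counts of changed clock genes are read against that background: 3 of 9 were called at 6 h against 2 h, all lower, where 49.1% of all genes were (22.2% higher and 26.9% lower). At 24 h against 6 h, 6 of 9 were called, 4 higher and 2 lower, where 50.6% of all genes were (24.3% higher and 26.3% lower). At 24 h against 2 h, 9 of 9 were called, 4 higher and 5 lower, where 69.5% of all genes were (34.2% higher and 35.3% lower). The median absolute change of the 9 was 0.36, 0.44 and 0.54 on the log2 scale in these comparisons, beside 0.42, 0.40 and 0.70 over all genes tested. All calls are from edgeR's quasi-likelihood test with Benjamini-Hochberg adjustment over all genes and a threshold of 0.05.

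Arntl and Clock encode the partners of the activating complex, and they moved apart. Arntl, the partner whose transcript cycles in most tissues, stood at 29.97, 36.9 and 46.1 CPM (lowest, median and highest of 18 libraries) at 2 h, at 24.6, 35.7 and 62.3 CPM at 6 h and at 16.6, 27.6 and 44.8 CPM at 24 h. Its log2 change from 2 to 6 h was 0.00 ± 0.09 (SE), and it was lower at 24 h in 17 of 18 pairs of same-numbered libraries, with a log2 change from 2 h of -0.44 ± 0.09 (adjusted p = 3.47e-05). Clock stood at 24.8, 63.6 and 74.8 CPM at 2 h, at 35.4, 74.8 and 102.5 CPM at 6 h and at 55.1, 108.9 and 137.3 CPM at 24 h. The median of Clock at 24 h exceeded every value at 2 h and at 6 h, although the ranges overlapped. Clock was 1.86-fold higher at 24 h than at 2 h (log2 change 0.90 ± 0.15, adjusted p = 1.83e-06, 16 of 18 pairs). The log2 ratio of Clock to Arntl counts within a library, which needs no scaling between libraries, was 0.58 ± 0.55 (SD, n = 18) at 2 h, 0.88 ± 0.69 at 6 h and 1.96 ± 0.38 at 24 h, and the lowest value at 24 h, 1.12, exceeded the highest at 2 h, 1.11.

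The period genes, which encode the returning repressors, had 3 different courses. Per1 stood at 76.5, 226.5 and 306.8 CPM at 2 h, at 85.0, 236.2 and 356.0 CPM at 6 h and at 89.1, 132.9 and 352.7 CPM at 24 h. Its median was thus lower at 24 h, but the ranges overlapped almost wholly, and from 2 to 24 h culture 1 ran against the other cultures. Its fall from 6 to 24 h was 0.46 ± 0.17 on the log2 scale (adjusted p = 0.0224, lower in 16 of 18 pairs). That call was lost without culture 2 (-0.24 ± 0.24, adjusted p = 0.457) and without culture 3 (-0.34 ± 0.25, adjusted p = 0.305), and without culture 1 the value was -0.83 ± 0.09. The mean paired difference of Per1 over this step was 0.23 ± 0.72 (SD, n = 6) in culture 1, -0.92 ± 0.23 in culture 2 and -0.75 ± 0.45 in culture 3. In culture 1 Per1 was lower in 4 of 6 pairs, so the positive mean came from the other 2. The fall from 2 h was 0.39 ± 0.17 (adjusted p = 0.0409, lower in 13 of 18 pairs) and lost its call with the culture number as a block (-0.37 ± 0.18, adjusted p = 0.0602). Without culture 1 it was -0.81 ± 0.09 (adjusted p = 1.85e-08), without culture 2 -0.06 ± 0.24 (adjusted p = 0.882) and without culture 3 -0.24 ± 0.25 (adjusted p = 0.435). Per2 stood at 34.03, 50.4 and 67.1 CPM at 2 h, at 27.3, 30.6 and 39.3 CPM at 6 h and at 24.7, 34.3 and 51.002 CPM at 24 h. Per2 was lower at 6 h than at 2 h in 18 of 18 pairs, by 0.62 ± 0.08 on the log2 scale (adjusted p = 5.79e-08), and its change from 6 to 24 h did not pass the test (0.15 ± 0.08, adjusted p = 0.135). Per3 stood at 13.9, 23.1 and 39.5 CPM at 2 h, at 10.0, 16.8 and 32.7 CPM at 6 h and at 22.4, 39.02 and 69.4 CPM at 24 h. Per3 had the largest time change of the 9 genes: it fell by 0.43 ± 0.14 from 2 to 6 h (adjusted p = 0.0101, 16 of 18 pairs) and then was 2.33-fold higher at 24 h than at 6 h (log2 change 1.22 ± 0.14, adjusted p = 2.76e-09, 18 of 18 pairs). The first of these calls was lost without culture 2 (-0.41 ± 0.17, adjusted p = 0.0607) and without culture 3 (-0.29 ± 0.19, adjusted p = 0.273). Within libraries the log2 ratio of Per1 to Per3 counts was 3.04 ± 0.83 (SD, n = 18) at 2 h, 3.59 ± 0.71 at 6 h and 1.88 ± 0.69 at 24 h. Per3 counts thus stood closest to those of Per1 at 24 h.

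Bhlhe40, the E-box-binding repressor, stood at 30.1, 53.3 and 190.4 CPM at 2 h, at 44.4, 67.4 and 221.2 CPM at 6 h and at 58.8, 100.4 and 150.5 CPM at 24 h. Its lowest value and its median were higher at each later time, while its highest values at 2 and 6 h belonged to 4 libraries of rMBD3 culture 1. The log2 change from 2 to 24 h was 0.68 ± 0.20 (adjusted p = 0.0025, 15 of 18 pairs), and the step from 6 to 24 h (0.31 ± 0.20, adjusted p = 0.191) was called with the culture number as a block (0.41 ± 0.17, adjusted p = 0.0411). That step was 0.77 ± 0.07 without culture 1 (adjusted p = 1.24e-09), 0.20 ± 0.28 without culture 2 (adjusted p = 0.625) and 0.05 ± 0.25 without culture 3 (adjusted p = 0.941). Its paired mean was -0.31 ± 0.93 (SD, n = 6) in culture 1, 0.63 ± 0.35 in culture 2 and 0.90 ± 0.38 in culture 3.

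Both REV-ERB genes had their lowest medians at 6 h. Nr1d1 stood at 39.2, 57.8 and 150.4 CPM at 2 h, at 19.5, 41.9 and 157.5 CPM at 6 h and at 55.8, 83.6 and 233.0 CPM at 24 h. Its log2 change from 2 to 6 h was -0.36 ± 0.20 (adjusted p = 0.125) and was called with the culture number as a block (-0.47 ± 0.13, adjusted p = 0.00288). It was -0.69 ± 0.12 without culture 1 (adjusted p = 1.96e-05), -0.22 ± 0.24 without culture 2 (adjusted p = 0.529) and -0.22 ± 0.29 without culture 3 (adjusted p = 0.625). Its paired mean was 0.07 ± 0.18 (SD, n = 6) in culture 1, -0.81 ± 0.23 in culture 2 and -0.70 ± 0.19 in culture 3. Nr1d1 was 1.93-fold higher at 24 h than at 6 h (log2 change 0.95 ± 0.20, adjusted p = 0.000122, 17 of 18 pairs). Nr1d2 stood at 31.7, 50.04 and 59.96 CPM at 2 h, at 18.5, 30.1 and 45.6 CPM at 6 h and at 21.5, 42.8 and 52.5 CPM at 24 h. It fell by 0.71 ± 0.10 from 2 to 6 h (adjusted p = 3.57e-07, 17 of 18 pairs), rose by 0.40 ± 0.10 from 6 to 24 h (adjusted p = 0.00144) and was at 24 h below its 2 h level, with a log2 change of -0.31 ± 0.10 (adjusted p = 0.00767). The rise was not called without culture 2 (0.25 ± 0.15, adjusted p = 0.231). The log2 ratio of Nr1d1 to Nr1d2 counts moved from 0.33 ± 0.63 (SD, n = 18) at 2 h to 0.57 ± 0.67 at 6 h and 1.21 ± 0.44 at 24 h.

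Dbp, the output factor, stood at 25.9, 64.7 and 132.4 CPM at 2 h, at 21.4, 48.04 and 98.8 CPM at 6 h and at 26.3, 39.97 and 78.6 CPM at 24 h. The fall from 2 to 24 h was 0.54 ± 0.19 on the log2 scale (adjusted p = 0.0122, lower in 14 of 18 pairs), and the change from 2 to 6 h (-0.34 ± 0.19, adjusted p = 0.135) was called with the culture number as a block (-0.35 ± 0.15, adjusted p = 0.0463) and in none of the fits that left out a culture. With that block 5 of the 9 genes were called at 6 h against 2 h in place of 3, and 54.7% of all genes. At 6 h against 2 h, 6 of 9 were called without culture 1 (57.5% of all genes), 2 without culture 2 (32.2%) and 2 without culture 3 (29.7%). At 24 h against 6 h these counts were 7 (60.3%), 5 (33.7%) and 5 (31%). Without culture 1 the change of Dbp from 2 to 24 h was -0.13 ± 0.19 on the log2 scale and not called (adjusted p = 0.535). At 24 h against 2 h, 8 of 9 were called without culture 1 (75.2% of all genes), 6 without culture 2 (57.9%), where Per1, Bhlhe40 and Nr1d2 lost their calls, and 4 without culture 3 (56.5%), where Per1, Bhlhe40, Nr1d1, Nr1d2 and Dbp did. Per3 at 24 h against 2 h was 0.79 ± 0.14 and, without culture 2, 0.48 ± 0.17 (adjusted p = 0.0159).

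**Figure D2:**
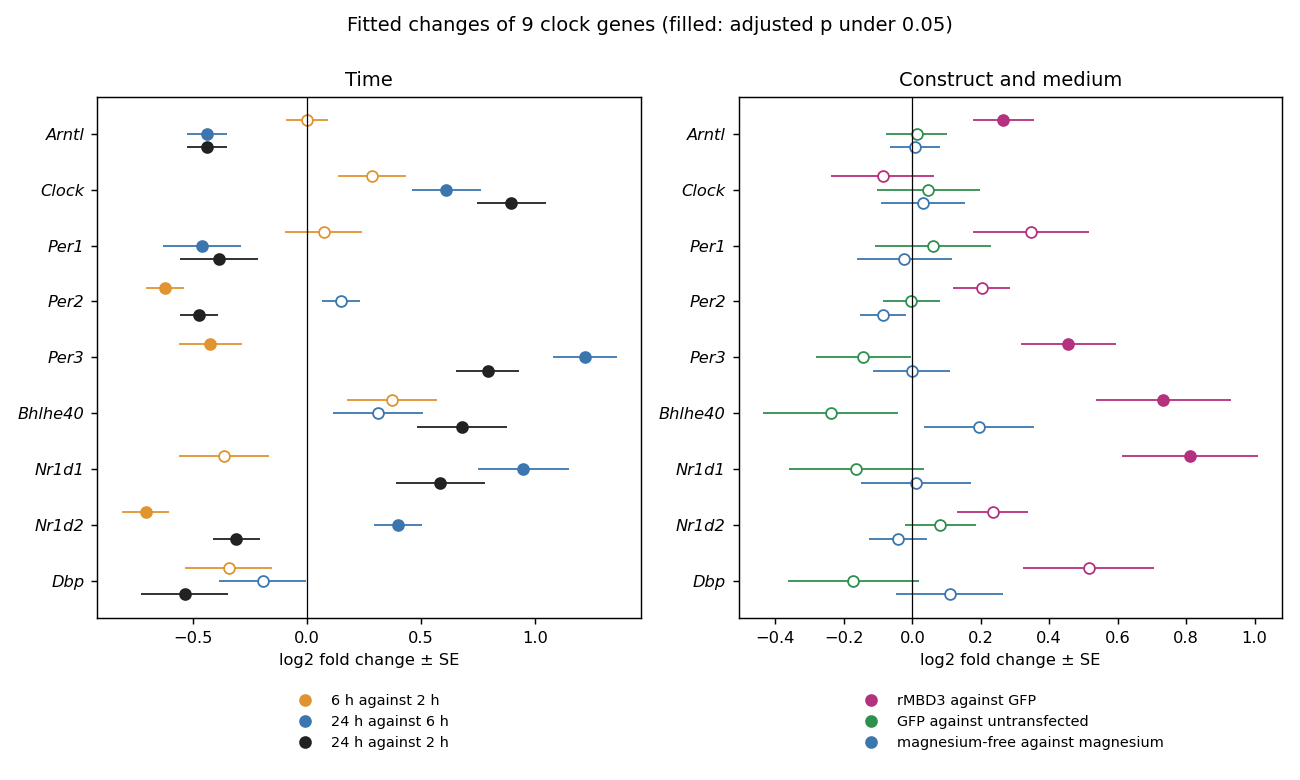
Fitted log2 fold change of each clock gene with its SE (bars) for the 3 time comparisons (left) and the construct and medium comparisons (right); filled symbols have an adjusted p under 0.05. Changes over time go in both directions, from -0.71 for Nr1d2 to 1.22 for Per3, whereas all 4 filled construct symbols lie to the right of 0.

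The courses also differed between the numbered cultures. The change from 2 to 24 h was estimated in each culture from a fit with a coefficient for every time point in every culture and common terms for construct and medium, and culture 1 was then compared with the mean of cultures 2 and 3; this comparison was chosen after the values had been seen. Each number was taken as 1 culture shared across the groups. The fit used all 54 libraries with a common spread for each gene, so these tests measure the spread among libraries and not among cultures. Of the 9 genes, 5 differed, and 35.1% of all genes tested did. Per1 rose in culture 1 (log2 change 0.56 ± 0.22) and fell in culture 2 by 0.98 ± 0.23 and in culture 3 by 0.73 ± 0.22, a difference of 1.42 ± 0.28 (adjusted p = 8.78e-05). Mean Per1 in culture 1 was 153 ± 87.6 CPM (SD, n = 6) at 2 h and 218 ± 78.6 CPM at 24 h, where culture 2 went from 257 ± 40.2 to 127 ± 15.0 CPM. Per2 gave 0.00 ± 0.10 in culture 1 and fell in culture 2 by 0.63 ± 0.10 and in culture 3 by 0.76 ± 0.10. Dbp dropped in culture 1 (-1.09 ± 0.20), where it began at 91.3 ± 21.9 CPM, against 38.5 ± 9.35 CPM in culture 2, whose change was 0.29 ± 0.19. Per3 gave 0.29 ± 0.15 in culture 1, 1.45 ± 0.15 in culture 2 and 0.62 ± 0.15 in culture 3. Bhlhe40 gave 0.19 ± 0.26 in culture 1, 0.88 ± 0.26 in culture 2 and 1.10 ± 0.26 in culture 3. For Arntl, Clock, Nr1d1 and Nr1d2 the difference of culture 1 from the others did not pass the test, and each had the same sign in all 3 cultures. The culture number accounted for 28.7% of the sum of squares of log2 CPM of Dbp, 24.8% of Nr1d1 and 20.9% of Clock, but 0.885% of Per2, in an additive decomposition in which time accounted for 11.5%, 32.9%, 44.2% and 54.7%.

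**Figure D3:**
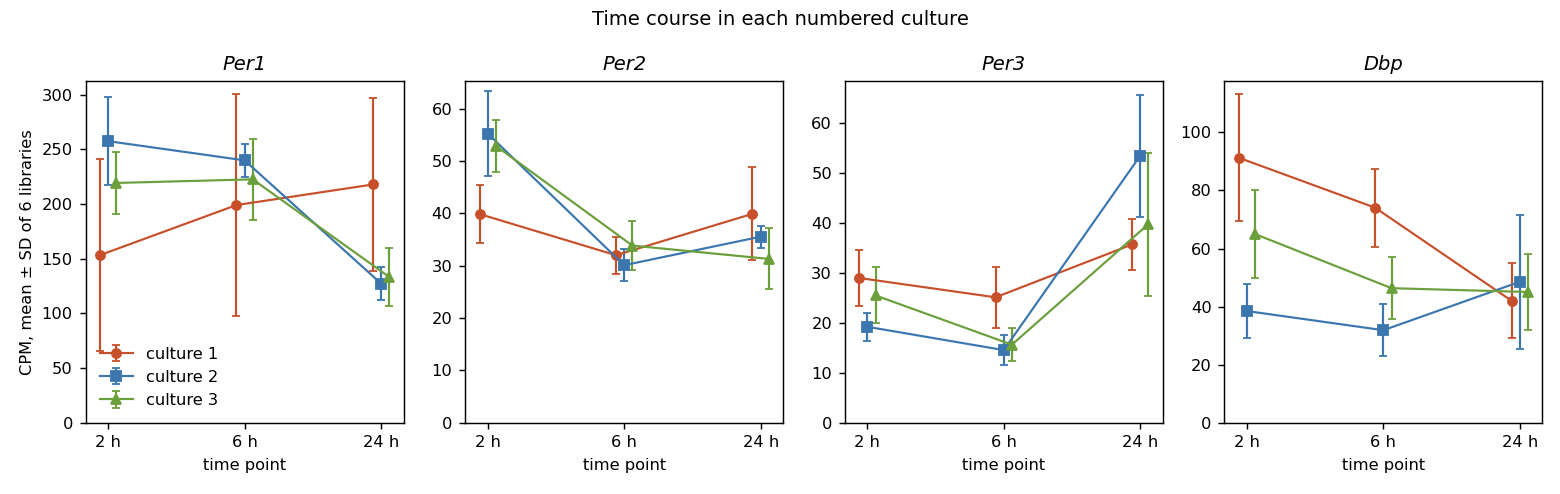
Mean level in CPM with SD over 6 libraries (bars) at each time point in cultures 1, 2 and 3 for Per1, Per2, Per3 and Dbp. The line of culture 1 goes up for Per1 where the others go down, stays level overall for Per2, and falls from the highest start for Dbp.

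Whether rMBD3 changed the clock genes was examined against the GFP virus, averaged over 6 combinations of medium and time. Nr1d1, Bhlhe40, Per3 and Arntl were called higher with rMBD3 than with GFP. Dbp was higher in every pair but missed the threshold without a block, and none of the 9 was called lower. The 4 calls, all higher, stand beside 11% of all genes called, 6.41% higher. The median log2 change of the 9 genes was 0.35, and that of all genes tested was -0.03.

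Nr1d1, the gene for REV-ERB alpha, stood at 19.5, 56.9 and 83.0 CPM (lowest, median and highest of 18 libraries) with GFP and at 34.3, 90.7 and 214 CPM with rMBD3. The ranges overlapped, but rMBD3 was the higher of the same-numbered pair in 18 of 18 comparisons. The log2 change was 0.81 ± 0.20, which is 1.75-fold (adjusted p = 0.00602), and 9.13% of genes tested had an absolute change as large or larger. In culture 3 the 6 paired differences were tight, from 0.24 to 0.33 on the log2 scale. They ran from 0.07 to 1.13 in culture 2 and from 0.59 to 1.45 in culture 1, with means of 0.29 ± 0.04 (SD, n = 6), 0.66 ± 0.34 and 1.22 ± 0.32 in cultures 3, 2 and 1. The direction was thus the same in all 3 cultures and the size was not, although the difference of culture 1 from the others did not pass the test (0.79 ± 0.22, adjusted p = 0.0976). At 6 h in culture 1, for example, Nr1d1 was 50.97 CPM with GFP and 122 CPM with rMBD3 in magnesium medium, and in culture 3 it was 34.99 and 43.7 CPM.

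Dbp stood at 24.8, 42.8 and 83.7 CPM with GFP and at 35.98, 61.98 and 132 CPM with rMBD3. It too was higher with rMBD3 in 18 of 18 pairs, 6 of 6 in each culture. The log2 change of 0.51 ± 0.19 missed the threshold (adjusted p = 0.0739) in a fit that does not use the pairing; with the culture number as a block it was 0.55 ± 0.15 (adjusted p = 0.00949). Culture means of the paired difference were 0.38 ± 0.33 (SD, n = 6), 0.76 ± 0.47 and 0.43 ± 0.25 for cultures 1, 2 and 3, and culture 1 had the smallest of them. The change was 0.59 ± 0.19 without culture 1 (adjusted p = 0.0359), 0.42 ± 0.16 without culture 2 (adjusted p = 0.152) and 0.56 ± 0.31 without culture 3 (adjusted p = 0.412).

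Per3 stood at 10.4, 22.6 and 53.8 CPM with GFP and at 16.2, 30.9 and 69.4 CPM with rMBD3. It was higher in 16 of 18 pairs, with a log2 change of 0.46 ± 0.14 (adjusted p = 0.0276). Culture means were 0.34 ± 0.35 (SD, n = 6), 0.45 ± 0.35 and 0.54 ± 0.20, close to each other beside their spread. Per3 at 24 h reached 64.0 and 69.4 CPM with rMBD3 in culture 2, the highest values of the gene in the series.

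Bhlhe40 and Arntl were called as well, with the largest differences in culture 1. Bhlhe40 stood at 30.1, 61.7 and 115 CPM with GFP and at 42.7, 89.2 and 221 CPM with rMBD3, a log2 change of 0.73 ± 0.20 (adjusted p = 0.013, 14 of 18 pairs). At 2 h in culture 1 it was 30.1 and 59.6 CPM with GFP in magnesium and magnesium-free medium, and 182 and 190.4 CPM with rMBD3. In culture 3 the values at 2 h were 40.3 and 51.8 CPM with GFP and 42.7 and 50.4 CPM with rMBD3. The log2 change fitted within cultures 1, 2 and 3 was 1.40 ± 0.22, 0.22 ± 0.21 and 0.02 ± 0.21, and culture 1 differed from the mean of the others by 1.28 ± 0.26 (adjusted p = 0.0206). Without culture 1 the change was 0.13 ± 0.07 (adjusted p = 0.196). Arntl, with a log2 change of 0.27 ± 0.09 (adjusted p = 0.0463, 14 of 18 pairs), gave 0.63 ± 0.11 in culture 1, -0.02 ± 0.11 in culture 2 and 0.15 ± 0.11 in culture 3, and 0.07 ± 0.06 without culture 1 (adjusted p = 0.553). Arntl lost its call too when no low-count filter was used (adjusted p = 0.0647).

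Per1 (log2 change 0.35 ± 0.17, adjusted p = 0.19), Per2 (0.20 ± 0.08, adjusted p = 0.107) and Nr1d2 (0.23 ± 0.10, adjusted p = 0.139) had values above 0 that did not pass the test. Per2 was higher in 17 of 18 pairs. With a block for the culture number within each time point, Per1 (0.38 ± 0.13, adjusted p = 0.0379) and Per2 (0.21 ± 0.06, adjusted p = 0.0129) were called and Nr1d2 was not (0.24 ± 0.09, adjusted p = 0.06); 23.8% of all genes were called in that fit. Per1 again divided by culture: 1.04 ± 0.18 in culture 1, 0.11 ± 0.18 in culture 2 and -0.09 ± 0.18 in culture 3, with culture 1 apart from the others by 1.03 ± 0.22 (adjusted p = 0.0283). Of the 9 genes, Per1 and Bhlhe40 were thus the 2 whose response to rMBD3 differed between culture 1 and the others, where 0.291% of all genes did. Clock did not pass the test, with a log2 change of -0.09 ± 0.15 and a 95% interval of -0.39 to 0.22.

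**Figure D4:**
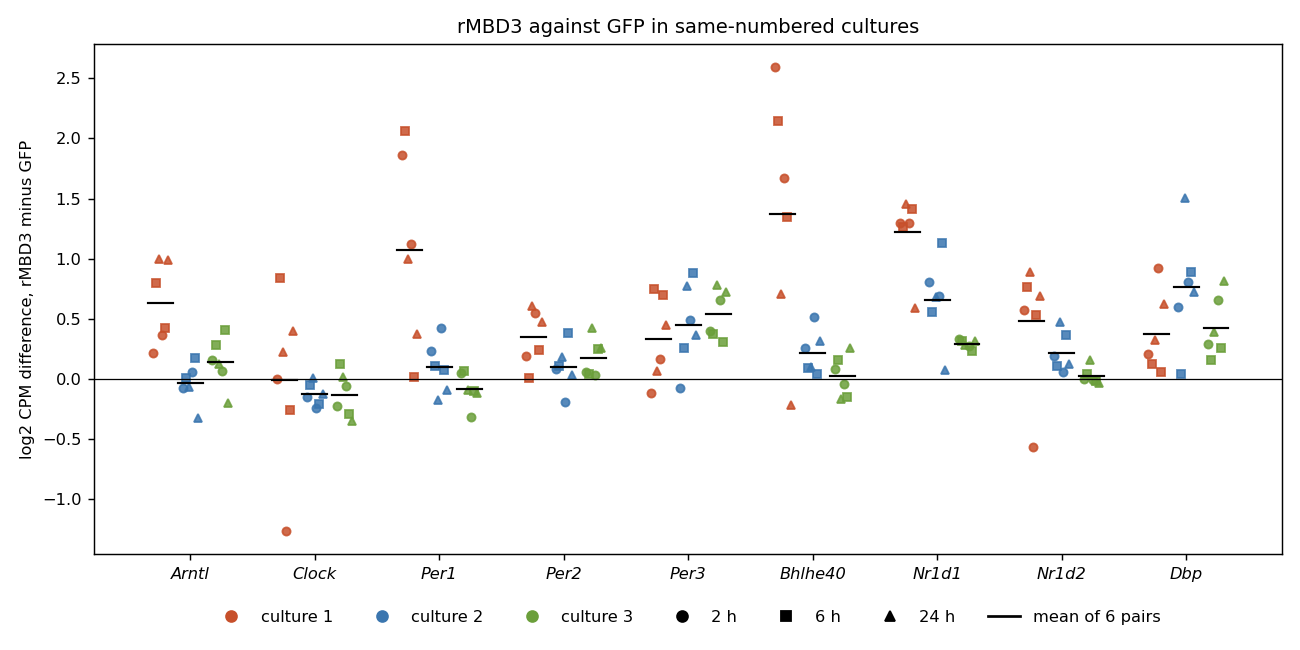
Difference in log2 CPM between the rMBD3 and the GFP library of the same culture number, medium and time (symbols, 6 per culture), by gene and culture; black lines are means of 6 pairs. Nr1d1 and Dbp lie above 0 in all 18 pairs. For Per1 and Bhlhe40 most symbols of culture 1 lie above those of cultures 2 and 3. Exceptions in culture 1 are Per1 at 6 h (0.01) and 24 h (0.38) and Bhlhe40 at 24 h (-0.21), all in magnesium-free medium.

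Without culture 1, Nr1d1 and Per3 kept their calls for rMBD3 against GFP, Bhlhe40 and Arntl lost theirs and Dbp gained one, where 14.5% of all genes were called. Without culture 2 or culture 3, 0 of the 9 were called, where 2.93% and 1.77% of all genes were. For Nr1d1 the value was 0.46 ± 0.11 without culture 1 (adjusted p = 0.0102), 0.88 ± 0.24 without culture 2 (adjusted p = 0.0504) and 1.03 ± 0.29 without culture 3 (adjusted p = 0.0681). For Per3 the values without cultures 2 and 3 were 0.47 ± 0.17 (adjusted p = 0.118) and 0.41 ± 0.19 (adjusted p = 0.307). At single time points edgeR called 0 of the 9 genes, with 2 at an unadjusted p under 0.05 at 2 h, 4 at 6 h and 3 at 24 h, where 0.874%, 0.221% and 0.949% of all genes were called. With the culture number as a block, Nr1d1 was called at 6 h (0.87 ± 0.23, adjusted p = 0.0424), where 1.42% of all genes were, and Dbp at 24 h (0.83 ± 0.26, adjusted p = 0.0476), where 6.59% were. With that block within each time point, Nr1d1 (adjusted p = 0.0119) and Bhlhe40 (0.0455) were called at 2 h, where 6.03% of all genes were. Nr1d1 (0.0182) and Per3 (0.0483) were called at 6 h (3.1% of all genes), and Per2 (0.0412), Per3 (0.0179) and Dbp (0.00761) at 24 h (12.7%). The fitted change of Nr1d1 was 0.85 ± 0.34 at 2 h, 0.96 ± 0.34 at 6 h and 0.62 ± 0.34 at 24 h, and higher in 6 of 6 pairs each time. Bhlhe40 went from 1.12 ± 0.35 at 2 h to 0.89 ± 0.34 at 6 h and 0.20 ± 0.34 at 24 h. The test of the difference between 24 and 2 h called 0 of 9 genes (0 at an unadjusted p under 0.05; 0.0175% of all genes were called), and gave -0.92 ± 0.48 for Bhlhe40 (adjusted p = 0.615). In each of the 6 single conditions 0 of 9 were called, with at most 1 at an unadjusted p under 0.05. Of all genes 0.0116%, 0.0116% and 0.134% were called there at 2, 6 and 24 h in magnesium medium, and 0.00582%, 0.00582% and 0.0233% in magnesium-free medium. Between media the response to rMBD3 called 0 of 9 (0 at an unadjusted p under 0.05; 0% of all genes called), and the largest difference in size was -0.39 ± 0.34, for Per1.

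The GFP virus alone was compared with untransfected cultures to give the background of transfection; it shares the GFP libraries with the comparison above. edgeR called 0 of the 9 genes (0 at an unadjusted p under 0.05, 0 by DESeq2), where 0.297% of all genes were called. Nr1d1 stood at 26.3, 54.2 and 233 CPM in untransfected cultures, Dbp at 21.4, 44.8 and 98.8 CPM, and Bhlhe40 at 47.8, 67.2 and 134 CPM. The fitted log2 changes ran from -0.24 ± 0.20 for Bhlhe40 to 0.08 ± 0.10 for Nr1d2, with a 95% interval for Nr1d1 of -0.56 to 0.23. At 2 and 6 h Bhlhe40 was lower with GFP than in untransfected cultures in 4 of 4 same-numbered pairs in each culture. At 24 h it was higher with GFP in 1 of 2 pairs in culture 1 and in 2 of 2 in cultures 2 and 3. Against untransfected cultures, rMBD3 gave 0.65 ± 0.20 for Nr1d1 (adjusted p = 0.0323), 0.32 ± 0.10 for Nr1d2 (adjusted p = 0.047) and 0.28 ± 0.09 for Arntl (adjusted p = 0.0418). These were the 3 of 9 called, all higher, where 8.65% of all genes were called, and 4.27% higher. Bhlhe40 and Per3, which were called against GFP, were not among them. Leaving out each culture in turn gave 0.08 to 0.65 for Bhlhe40 in this comparison. Of the 9 genes 0 were called without culture 2 (3.61% of all genes) or without culture 3 (1.85%), and without culture 1 Per2, Per3, Dbp, Nr1d1 and Nr1d2 were (14.1%). The highest Nr1d1 value of the series, 233 CPM, was in an untransfected library (culture 1, magnesium medium, 24 h), in which Nr1d2 was 52.5, Per1 249.8 and Bhlhe40 130.04 CPM. The same 4 genes were at 84.6, 43.3, 125.0 and 67.8 CPM in culture 2 of that group, and at 55.8, 21.5, 89.1 and 66.8 CPM in culture 3.

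The epileptiform medium was the last factor compared, over 9 combinations of construct and time. No clock gene passed the test: edgeR called 0 of 9 overall and 0 of 9 at 2, 6 and 24 h (0 at an unadjusted p under 0.05 in each), DESeq2 called 0 of 9 overall and at 24 h, and 0% of all genes were called by edgeR in each of these. In each of the 9 single conditions 0 of the 9 genes were called too (0 at an unadjusted p under 0.05; 0% of all genes called). Per1, the member best known for induction by neuronal activity, had a log2 change of -0.02 ± 0.14 with a 95% interval of -0.30 to 0.26. At 2 h the value for Per1 was -0.05 ± 0.24, with an interval of -0.54 to 0.43. For Nr1d1 the interval was -0.31 to 0.33, for Per3 -0.23 to 0.23, for Arntl -0.14 to 0.15 and for Clock -0.22 to 0.28. Bhlhe40 was higher in magnesium-free medium in 24 of 27 same-numbered pairs, 9 of 9 at 2 h, 9 of 9 at 6 h and 6 of 9 at 24 h, with a fitted log2 change of 0.19 ± 0.16 that did not pass the test (adjusted p = 0.719). The mean paired log2 difference was 0.03 ± 0.72 (SD, n = 9) in culture 1, 0.24 ± 0.18 in culture 2 and 0.37 ± 0.27 in culture 3. Single differences ran from -1.14 to 0.99, from 0.00 to 0.47 and from 0.02 to 0.75. The largest were in GFP culture 1, where Bhlhe40 was 30.1 CPM with magnesium and 59.6 without at 2 h, and 44.4 and 87.0 CPM at 6 h. The 3 lower pairs were also in culture 1, at 24 h. The medium effect did not differ between 24 and 2 h for any of the 9 genes by edgeR (0 called, 0 at an unadjusted p under 0.05; 0% of all genes called).

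Likeness among the genes was described by the root-mean-square difference of their centred mean log2 CPM over the 18 groups, where 0 means an identical course. Per2 and Nr1d2 were nearest to each other (0.17), with Dbp nearest to Per2 (0.25). Arntl and Per1 formed a pair (0.20), as did Per3 and Nr1d1 (0.27), and Clock and Bhlhe40 were each other's nearest at a larger distance (0.36). Per1 and Per3, although of one family, were the farthest apart of any pair (0.75). Per3 and Nr1d1 had the widest ranges of group means, 1.86 and 1.84 on the log2 scale, and both were highest in rMBD3 cultures at 24 h and lowest in GFP cultures at 6 h. Among 12165 other genes with a mean log2 CPM of at least 1, the gene most like Per3 was ENSRNOG00000048961 on chromosome 4 (difference 0.19), and the one most like Nr1d1 was ENSRNOG00000016267 on chromosome 1 (0.26). All these courses share the same 54 libraries and their scaling.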

How the data were processed

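The authors deposited a table of whole-number read counts per gene for 54 libraries. Per the file headers, featureCounts 2.0.0 counted read pairs over exons with strand setting 2 and a minimum mapping quality of 3, on Ensembl release 105 of mRatBN7.2. The labels' protocol names STAR and a stranded mRNA kit, and gives the genome as rn6, which the file header does not. From these counts, edgeR 4.0.16 (R 4.3.3) was run with the low-count filter filterByExpr (minimum count 10, minimum total 15), TMM scaling and a robust quasi-likelihood fit with 1 coefficient for each of 18 groups. The 52 contrasts were each adjusted by the Benjamini-Hochberg method over 17172 genes, with a threshold of 0.05. CPM used TMM library sizes, and RPKM was computed here from CPM and the exonic length in the table. SE is the absolute log2 change divided by the square root of F.

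The 9 genes and the gene lists were chosen with earlier results of these data known. All 9 were described, and likeness was given for the nearest other member and, for the 2 genes with the widest range, the 2 nearest other genes with a mean log2 CPM of at least 1, of which the nearest is printed. The culture number was taken as pairing libraries because the labels give it as the number of the cell culture. Deviations from group means correlated by 0.17 on average between libraries of the same number (over 0.1 in 307 of 459 pairs of libraries). The value between different numbers, -0.08, adds nothing to this, because deviations cancel out within each group. Of 54 libraries, 49 correlated best with their own number. Alternatives were a block for the culture number, RLE scaling, no filter, fits on the compared groups alone, DESeq2 1.42.0 and leaving out each culture. Simulated counts of 17172 genes were drawn independently for each library, with no culture effect and 100 genes changed at each fold. The real libraries shared culture effects and far more genes changed with time, so the simulated rates need not hold for them. In the simulated data the rMBD3 against GFP comparison recovered 50% of 1.5-fold and 68% of 2-fold changes, with 3.28% of calls false. The comparison of 24 h with 2 h recovered 51% and 71%, and 1 single condition (rMBD3 against GFP in magnesium medium at 24 h) recovered 2% and 26%.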

Additional observations from a re-analysis of the deposited data

Results flagged for a closer look

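Culture 1 differed from the mean of cultures 2 and 3 in 7 tested effects, by edgeR's quasi-likelihood test with adjustment over all genes. For the change from 2 to 24 h the differences on the log2 scale were 1.42 for Per1, 0.70 for Per2, -0.75 for Per3, -0.80 for Bhlhe40 and -0.97 for Dbp. For rMBD3 against GFP they were 1.03 for Per1 and 1.28 for Bhlhe40. The contrast of culture 1 with the others was chosen after the values had been seen, and each number was taken as 1 culture. Among all genes, 35.1% differed in the first comparison and 0.291% in the other. Libraries of culture 1 also lay further from their group (median absolute log2 distance 0.368, against 0.255 and 0.214 in cultures 2 and 3); the part of this in the differences was not tested.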

How the results depend on the processing

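With a replicate block for the culture number, 5 of the 9 genes passed the threshold at 6 h against 2 h in place of 3 (54.7% of all genes), 7 in place of 6 at 24 h against 6 h (56.5%), 8 in place of 9 at 24 h against 2 h (73%) and 5 in place of 4 for rMBD3 against GFP (17.4% of all genes). With a replicate block for each time point, 7 passed for rMBD3 against GFP (23.8% of all genes) and 7 in place of 3 for rMBD3 against untransfected (19.7%). Leaving out each culture in turn gave 2 to 6 genes at 6 h against 2 h (29.7% to 57.5% of all genes), 5 to 7 at 24 h against 6 h (31% to 60.3%), 4 to 8 at 24 h against 2 h (56.5% to 75.2%), 0 to 3 for rMBD3 against GFP (1.77% to 14.5%) and 0 to 5 for rMBD3 against untransfected (1.85% to 14.1%); fewer samples entered these fits. The counts of 0 for GFP against untransfected, for the medium and for the 3 differences of effects stayed at 0 in every alternative run. Without a block, 0.297% of all genes were called for GFP against untransfected and 0% for the medium. For the differences of effects the shares were 0.0175% (rMBD3 at 24 h minus 2 h), 0% (medium at 24 h minus 2 h) and 0% (rMBD3 between media). Shares over all genes in the alternative runs of these comparisons are not given here. Values for each single culture, from joint fits of all libraries, were given for 24 h against 2 h and rMBD3 against GFP. Among them 3 called values changed sign. Per1 at 24 h against 2 h was 0.56 in culture 1, Dbp at 24 h against 2 h was 0.29 in culture 2, and Arntl for rMBD3 against GFP was -0.022 in culture 2. The cause was not tested. The paired mean of Per1 at 24 h against 6 h also had the other sign in culture 1 (0.23), where 2 of 6 pairs were higher and 4 lower. Of the other comparisons of single genes with an alternative, 651 stayed on the same side of the threshold without a called change of sign, 23 gained a call, 37 lost one and 0 reversed. Per1 at 24 h against 2 h lost its call under RLE scaling (adjusted p = 0.0649), no filter (0.061), the compared groups alone (0.114) and DESeq2 (0.0589). The fit on the compared groups alone is the same fit for the medium averaged over all groups and was not run there, and a block for each time point cannot be combined with a time comparison. The lowest count of these genes was 226; the effect of depth or of the number of cultures was not tested.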
